A study of Rattus norvegicus with 2 samples.

Results

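The 9 genes described here are antimicrobial or secretory genes that are best known from Paneth cells, followed in single-cell libraries of the rat jejunum. They are 6 alpha-defensin genes (Defa24, Defa8, Defa9, Defa6, Defa5 and Defal1), Lyz2, Mmp7 and Itln1, and they are 9 of the 32883 genes listed in the deposited matrices. They were chosen by symbol, with earlier results of these data known, and no symbol had more than 1 row. Epithelium of the proximal jejunum came from 2 untreated adult male Sprague Dawley rats, an outbred strain, aged 6-8 weeks and fasted overnight, and each rat gave 1 droplet-based 3' library. The sheets of epithelium were released with EDTA and separated with dispase, so the libraries hold the cells that this treatment freed and that were then called as cells.

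Paneth cells sit at the base of the crypts of the small intestine and secrete antimicrobial proteins into the crypt lumen. Alpha-defensins are short cationic peptides that disrupt bacterial membranes, and they are stored as precursors in granules. Mmp7, or matrilysin, is the protease that cuts the alpha-defensin precursors to their active form in mice. Lyz2 encodes a lysozyme, which cleaves bacterial cell walls and is also a product of macrophages. Itln1 encodes intelectin, a secreted lectin that binds microbial sugars and is known from both goblet and Paneth cells. Goblet cells are the mucus-secreting cells of the epithelium, and here their transcripts were read from Tff3, Agr2, Clca1, Fcgbp and Spink4.

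In the files the defensin members are Defa24 (ENSRNOG00000030524), Defa8 (ENSRNOG00000046075), Defa9 (ENSRNOG00000046453), Defa6 (ENSRNOG00000029522), Defa5 (ENSRNOG00000030093) and Defal1 (ENSRNOG00000029462), and the others are Lyz2 (ENSRNOG00000005825), Mmp7 (ENSRNOG00000010507) and Itln1 (ENSRNOG00000004678). In the RefSeq gene table of the GRCr8 assembly the alpha-defensin members share chromosome 16, where Defa5, Defa24, Defal1, Defa6, Defa8 and Defa9 follow each other in this order among the genes listed here. Near-identical members of such a family can be hard to tell apart by their reads, which can affect the split of UMIs among the defensins and also their sum. This was not tested.

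The RefSeq promoter table of the GRCr8 build held entries for 4 of the 9 members, namely Defa9, Lyz2, Mmp7 and Itln1. Their last 100 bases before the start of transcription are shown because these genes differ in the cells that carry them. Capitals mark the letters TATAAA, a form of the TATA box, and CTTTGA or CTTTGT, forms of the site bound by TCF factors, searched on both strands.
Defa9, chr16:77184168-77184267, plus strand: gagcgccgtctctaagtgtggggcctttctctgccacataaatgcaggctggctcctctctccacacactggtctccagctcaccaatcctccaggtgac
Lyz2, chr7:54798012-54798111, minus strand: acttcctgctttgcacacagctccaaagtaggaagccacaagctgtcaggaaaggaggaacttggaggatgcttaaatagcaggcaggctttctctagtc
Mmp7, chr8:13132943-13133042, plus strand: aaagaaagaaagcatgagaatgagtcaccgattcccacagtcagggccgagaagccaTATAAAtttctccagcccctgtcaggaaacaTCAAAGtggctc
Itln1, chr13:86480448-86480547, plus strand: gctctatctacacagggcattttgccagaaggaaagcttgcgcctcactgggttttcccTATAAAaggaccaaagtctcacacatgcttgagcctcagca
The Mmp7 window held TATAAA from 43 to 38 bases before the start and CTTTGA on the reverse strand from 12 to 7 bases before it. The Itln1 window held TATAAA from 41 to 36 bases before the start, and the Defa9 and Lyz2 windows held none of these letters. Of all 33469 promoters in the table, 5.78% held TATAAA in the same window, 5.31% held CTTTGA and 6.68% held CTTTGT.

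The library of rat 1 held 12027 barcodes over 500 UMIs and that of rat 2 held 8247. A UMI, or unique molecular identifier, marks 1 captured transcript. Filtered cells passed limits of 200 to 5800 genes, over 5000 UMIs and a mitochondrial share of up to 40%. Rat 1 kept 5988 cells (median depth 12200 UMIs) and rat 2 kept 2230 (13962). The libraries shared 28 barcode sequences.

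Defensin transcripts were abundant in rat 1 and scarce in rat 2. Over all barcodes above 500 UMIs, the 6 defensins gave 169695 UMIs in rat 1, or 1697 CPM, and 4429 UMIs in rat 2, or 66.6 CPM. CPM are UMI counts scaled to a total of 1000000 over the barcodes described. Defa24 was the member with the most defensin UMIs in both rats. It gave 547 CPM in rat 1 and 23.2 in rat 2.

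The other defensins lay below Defa24 in each rat. Defal1 gave 356 and 6.73 CPM in rats 1 and 2, Defa9 gave 348 and 13.1, Defa8 gave 249.8 and 9.04, and Defa6 gave 196 and 14.5. Defa5 had no UMI in either rat, which allows up to 0.0300 CPM in rat 1 and 0.0451 in rat 2. Older names of Defa5 in the RefSeq table are those of neutrophil peptides. The neutrophil markers S100a8, S100a9, Mpo and Elane together had no UMI in any of the defensin-rich barcodes described next. Why Defa5 had no UMI was not tested.

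The ratios between the rats were smaller for the lysozyme and intelectin genes. Lyz2 gave 108 CPM in rat 1 and 95.5 in rat 2, and Itln1 gave 445 and 96.5. Mmp7 was the rarest detected member, with 456 UMIs in rat 1 and 32 in rat 2. With 1 library per rat, and with libraries whose headers name different Cell Ranger versions, the differences between the rats were not tested.

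Nearly all defensin UMIs came from very few barcodes. A barcode was called defensin-rich when it had over 500 UMIs and at least 1% of its UMIs, and at least 5 UMIs, came from the 6 defensins. There were 34 such barcodes in rat 1, or 0.283% of 12027 (95% exact Clopper-Pearson interval 0.196-0.395%), and 9 in rat 2, or 0.109% of 8247 (0.0499-0.207%). They held 92.8% of the defensin UMIs of rat 1 and 84.4% of those of rat 2. Intervals on shares cover counting error only.

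Of these barcodes, 9 in rat 1 and 1 in rat 2 passed the cell filter. The 9 filtered cells of rat 1 alone held 89.4% of the rat's defensin UMIs, and the single filtered cell of rat 2 held 61.1%. In rat 1 defensins made up 12.8% to 79.8% of the UMIs of the filtered cells, with a median of 50.8%. The richest cell had 62554 UMIs, of which 49889 were defensin UMIs. In rat 2 the filtered cell had 20374 UMIs, of which 13.3% were defensin UMIs.

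All 25 defensin-rich barcodes of rat 1 and all 8 of rat 2 that failed the filter had 5000 or fewer UMIs. Their median depth was 847 UMIs in rat 1 and 767 in rat 2, against 1708 and 3103 for all barcodes outside the filter. Over 40% mitochondrial UMIs were found in 4 of the 25 and in 1 of the 8. Their median mitochondrial share was 6.46% in rat 1 and 34.1% in rat 2. In 10 of the 25 barcodes of rat 1, at least 40% of the UMIs were from defensins. The filter on cells removed 6.87% of the defensin UMIs of rat 1 and 34.9% of those of rat 2.

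**Figure D1:**
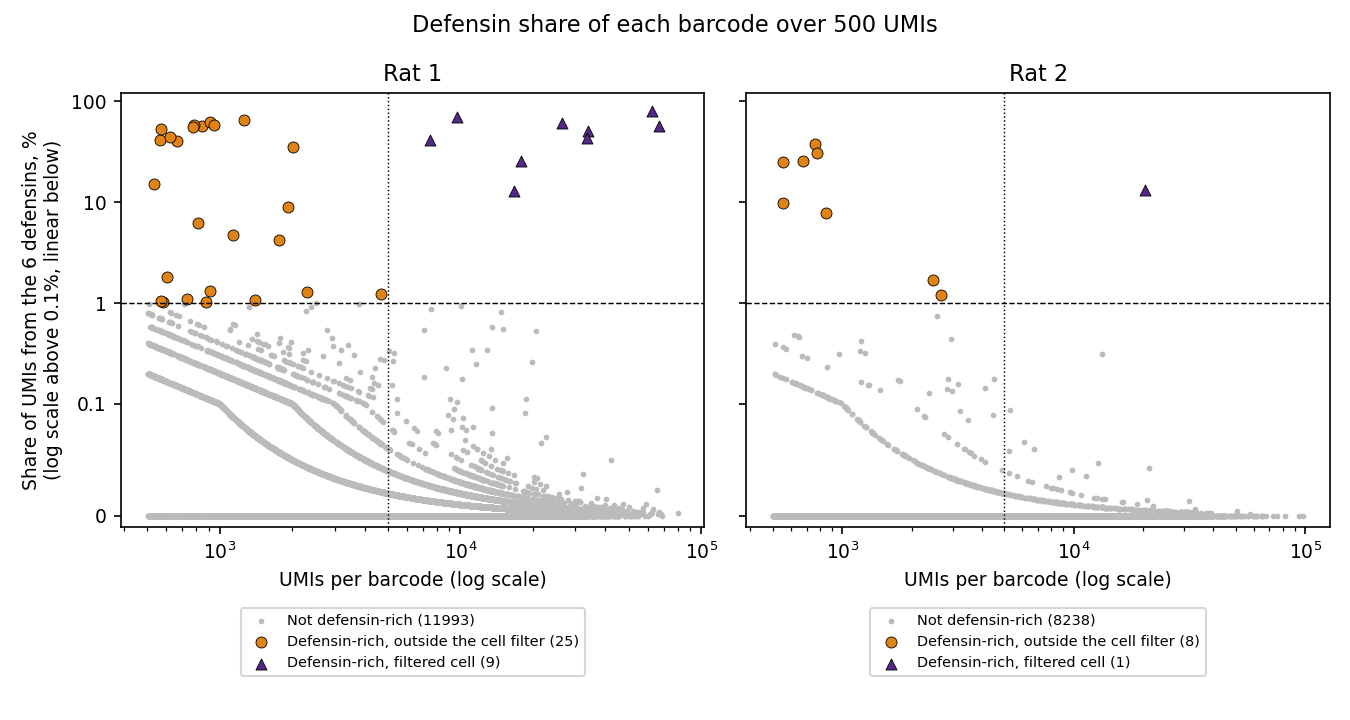
Share of UMIs from the 6 defensins (y axis, log above 0.1% and linear below) against UMIs per barcode (x axis, log) for each barcode over 500 UMIs of rat 1 and rat 2. Dashed lines mark 1% and dotted lines 5000 UMIs, triangles are filtered cells, and circles are defensin-rich barcodes outside the filter. The 9 filtered cells of rat 1 lie between 12.8% and 79.8%, and the 1 of rat 2 lies at 13.3%.

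The barcodes nearest to the 1% threshold held few UMIs. The lowest values inside it in rat 1 were 1.02%, 1.03% and 1.05%, from 9, 6 and 6 defensin UMIs, and the highest outside it were 0.992%, 0.986% and 0.983%, from 25, 5 and 7. In rat 2 the lowest inside were 1.20%, 1.71% and 7.80%, and the highest outside were 0.741%, 0.442% and 0.417%. In rat 1, 18 barcodes lay between 0.8% and 1.3%, and in rat 2 only 1 did.

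Outside the defensin-rich barcodes, the defensins were at a low level in every kind of cell. At least 1 defensin UMI was found in 56.5% of the other barcodes of rat 1 and in 5.85% of those of rat 2, with median depths of 5619 and 4408 UMIs. In filtered cells of rat 1, the summed level was 74.3 CPM in enterocyte-like cells, 78.3 in crypt cells, 72.5 in goblet-lineage cells and 109 in leukocytes, each without defensin-rich cells. In rat 2 the same groups had 3.15, 11.0, 4.48 and 9.46. Enterocytes are not known to make these peptides, and the part of free RNA in these levels was not tested. The 11.0 CPM of crypt cells in rat 2 came from 18 UMIs in 140 cells.

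Shares of cells were compared after thinning each filtered cell to 5000 UMIs. In rat 1, a Defa24 UMI was found in 12.9% of 3291 enterocyte-like cells, 12.7% of 1256 crypt cells, 14.9% of 417 goblet-lineage cells and 16.5% of 170 leukocytes. Without thinning the shares were 25.9%, 28.3%, 27.8% and 26.5%, at median depths of 12094, 13398, 13458 and 12453 UMIs. In rat 2, the thinned share was 0.278% of 1081 enterocyte-like cells, 2.14% of 140 crypt cells, 0.565% of 177 goblet-lineage cells and 0.797% of 251 leukocytes, from 1 to 3 cells in each group.

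The defensin genes kept a similar order of abundance in most groups of barcodes. In the 9 filtered cells of rat 1, Defa24 made up 31.8% of the defensin UMIs, Defal1 20.8%, Defa9 20.6%, Defa8 14.8% and Defa6 11.9%. In the 25 defensin-rich barcodes outside the filter the shares were 36.0%, 20.1%, 20.9%, 15.9% and 7.12%. In all other barcodes of rat 1 they were 35.9%, 23.3%, 18.9%, 12.9% and 8.92%. Single cells varied most in Defa6, which ranged from 2.32% to 21.3% of the defensin UMIs across the 9 filtered cells.

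The filtered cell of rat 2 had another composition. Defal1 gave 7 of its 2704 defensin UMIs, or 0.259%, whereas it lay between 16.3% and 26.4% in the 9 filtered cells of rat 1. In the 4 defensin-rich barcodes of rat 2 that lay outside the filter and had at least 100 defensin UMIs, Defal1 lay between 19.7% and 30.1%. Defa6 made up 31.5% of the defensin UMIs of the filtered cell of rat 2, above the highest value of rat 1 and above the 2.90% to 9.25% of those 4 barcodes. This composition rests on 1 cell.

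**Figure D2:**
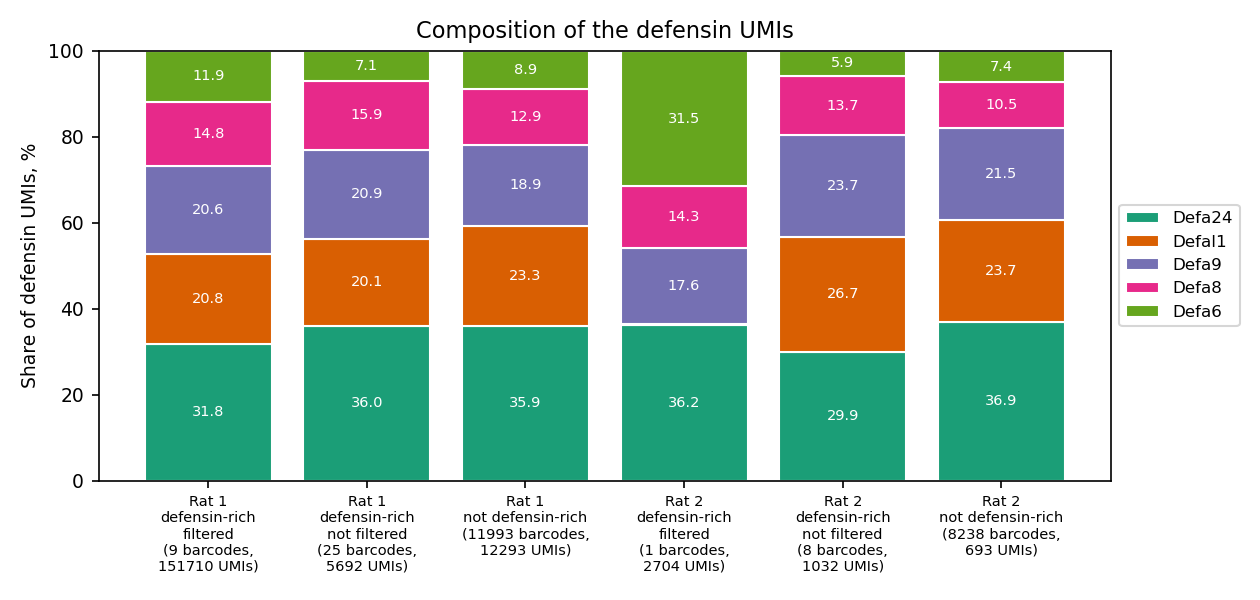
Stacked bars of the share of each defensin gene in the defensin UMIs (y axis, percent) for 3 sets of barcodes in each rat, with the number of barcodes and UMIs under each bar. Defal1 is almost missing from the bar of the filtered cell of rat 2, at 0.259%, and lies between 20.1% and 26.7% in the other bars.

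The other members were found in the same barcodes. All 9 filtered defensin-rich cells of rat 1 carried Lyz2, Itln1 and Mmp7 UMIs, and the filtered cell of rat 2 carried 455 Lyz2 and 364 Itln1 UMIs and no Mmp7 UMI. Per 100 defensin UMIs, the filtered cells of rat 1 had 3.68 Lyz2, 3.40 Itln1 and 0.264 Mmp7 UMIs. The defensin-rich barcodes outside the filter in rat 1 had 3.85, 4.08 and 0.228. In rat 2 the filtered cell had 16.8 Lyz2 and 13.5 Itln1 UMIs per 100 defensin UMIs, and the 8 other defensin-rich barcodes had 8.33, 5.91 and, for Mmp7, 0.678.

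Other genes known from Paneth cells or from antimicrobial defence were present as well. Pla2g2a, a secreted phospholipase that kills bacteria, reached 28795 CPM in the filtered defensin-rich cells of rat 1 and 1374 in that of rat 2. RatNP-3b, another alpha-defensin gene of chromosome 16, reached 35042 and 17326. It may share reads with the members, which was not tested. Wnt3, a ligand that Paneth cells offer to stem cells, stood at 76.5 CPM in these cells of rat 1, from 21 UMIs, against 1.22 in crypt cells. Wnt11 and Nupr1 had no UMI in them, Dll4 and Copz2 had 1 each, and Habp2 had up to 12 in a single cell. Sox9 stood at 102 against 78.4 in crypt cells. These genes were kept out of the clustering and are given as a description. Their CPM are taken over all UMIs, of which defensins made up a median of 50.8% in the filtered defensin-rich cells of rat 1.

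Defensin-rich cells formed no cluster of their own. In the main clustering the 9 cells of rat 1 and the 1 of rat 2 lay in 6 clusters, with at most 3 of rat 1 in any of them, and this held at a resolution of 1.0, at a mitochondrial limit of 20%, without cells called as doublets and with the members among the variable genes. In rat 1, 4 cells were in the crypt class, 2 in the goblet-lineage class and 1 in the enterocyte-like class. The other 2, which included the richest cell, were in a cluster set aside for its hemoglobin level, although they had only 2 and 3 UMIs of the hemoglobin and Alas2 markers. The cell of rat 2 was in the goblet-lineage class. So few cells may be too few to form a cluster in any of these settings, and the study named Paneth cells in its own clustering. A Paneth class could not be compared with other classes here, and the cells are called by their defensin share.

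The share of goblet-rich barcodes among defensin-rich ones was set beside that of all barcodes. A barcode was called goblet-rich when at least 1% of its UMIs came from Tff3, Agr2, Clca1, Fcgbp and Spink4, with no minimum of UMIs. In rat 1, 2 of 34 defensin-rich barcodes were goblet-rich, or 5.88% (0.720-19.7%), against 6.87% of all barcodes. In rat 2, 2 of 9 were, or 22.2% (2.81-60.0%), against 3.84% of all barcodes. Both such barcodes of rat 1 had only 6 goblet UMIs, and 1 of the 2 of rat 2 had only 10, of which 9 were Fcgbp. The intervals in both rats hold the value for all barcodes.

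Among filtered cells the rats differed in this respect. None of the 9 cells of rat 1 was goblet-rich (an upper limit of 33.6%), and the goblet genes made up 0.0168% to 0.602% of their UMIs. Since defensins fill so much of these cells, the goblet share was also taken over the UMIs that came from no member, and it then lay between 0.0235% and 1.05%. The filtered cell of rat 2 had 8.23% goblet UMIs, or 9.95% of the UMIs from no member, with 474 Tff3, 323 Agr2 and 501 Clca1 UMIs. Scrublet called none of the defensin-rich cells a doublet, but it called only 2 of 2230 cells of rat 2 and may not have worked there. Whether this barcode holds 1 cell or more was not tested.

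Single goblet genes were also counted at equal total depth, of which defensins took a large part in the defensin-rich cells. In the 9 filtered cells of rat 1, Defa24 alone took a mean of 769 of 5000 UMIs. The shares below were not corrected for this, which leaves fewer UMIs for goblet genes in these cells. After thinning to 5000 UMIs, Agr2 was found in 5 of the 9 filtered defensin-rich cells of rat 1, against 98.8% of 417 goblet-lineage cells, 59.9% of 1256 crypt cells and 19.5% of 3291 enterocyte-like cells. Tff3 was found in all 9, but also in 45.8% of enterocyte-like cells and 48.2% of leukocytes, so its detection alone does not mark goblet cells. Over all barcodes thinned to 500 UMIs, Agr2 was found in 26.5% of the 34 defensin-rich barcodes of rat 1 and in 11.1% of the 9 of rat 2. In goblet-rich barcodes that were not defensin-rich the shares were 83.3% and 53.0%, and in barcodes of neither kind they were 9.35% and 2.04%. For Tff3 the shares in rats 1 and 2 were 61.8% and 44.4% in defensin-rich barcodes and 20.8% and 12.4% in barcodes of neither kind. The shares of the defensin-rich barcodes lay between those of the other sets in both rats. For Agr2 in rat 2 this rests on 1 of 9 barcodes (0.281-48.2%), the filtered cell that was also goblet-rich.

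**Figure D3:**
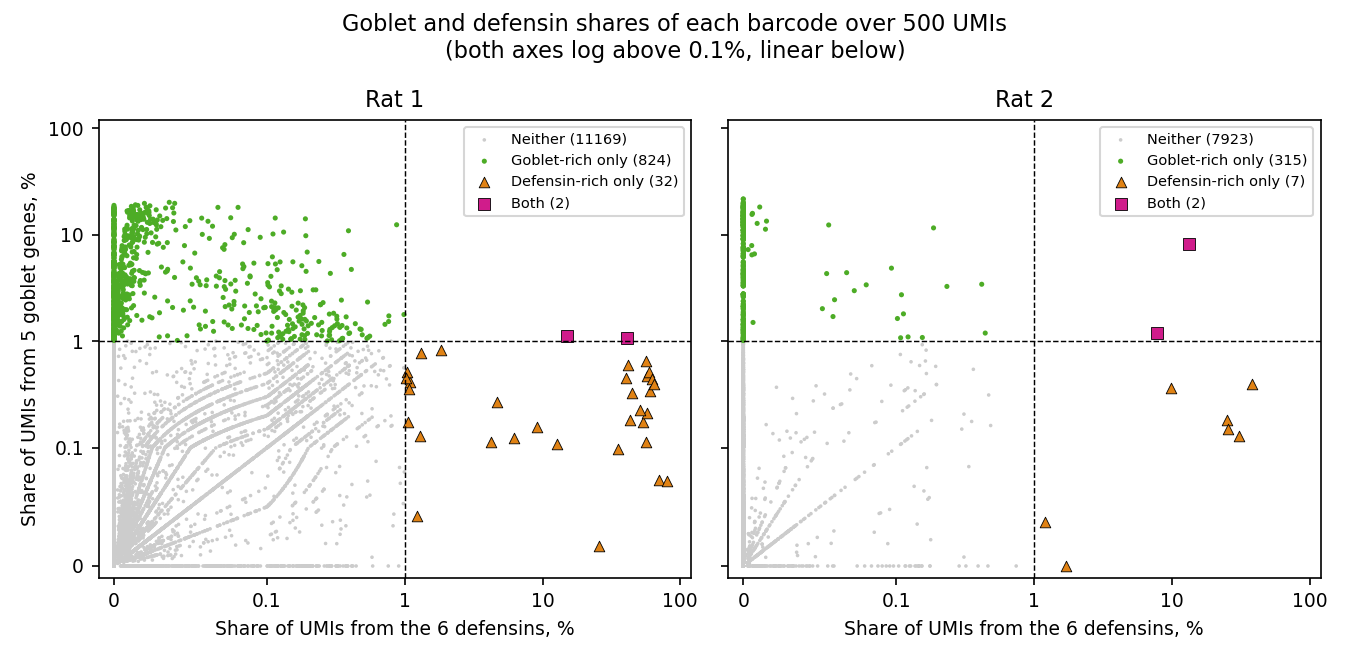
Share of UMIs from the 5 goblet genes (y axis) against the share from the 6 defensins (x axis) for each barcode over 500 UMIs, both axes log above 0.1% and linear below, with dashed lines at 1%. Squares are barcodes past both thresholds, 2 in each rat, and the square at 8.23% goblet and 13.3% defensin UMIs is the filtered cell of rat 2.

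Itln1 was mainly a transcript of goblet-rich barcodes. Goblet-rich barcodes that were not defensin-rich held 78.9% of the Itln1 UMIs of rat 1 and 88.8% of those of rat 2. Defensin-rich barcodes that were not goblet-rich held 12.1% and 0.842%, and the barcodes past both thresholds held 0.0292% and 5.78%. As a level in CPM, however, Itln1 was higher in filtered defensin-rich cells, at 18801 in rat 1 and 17866 in rat 2, than in the goblet-lineage class without them, at 4232 and 1753. Each of these levels is the sum over 1 library. The defensin-rich level of rat 2 comes from 1 cell with 364 Itln1 UMIs, which was itself goblet-rich and in the goblet-lineage class.

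Lyz2 was divided among more kinds of barcode. In rat 1, defensin-rich barcodes held 53.6% of its UMIs and goblet-rich barcodes without a defensin call held 36.7%. In rat 2 these shares were 8.53% and 26.4%, and 65.0% lay in barcodes past neither threshold. A large part of the latter came from Ptprc-rich cells with the macrophage markers Cd68, Csf1r, C1qa, C1qb and Cd14, which held 2669 of the 6346 Lyz2 UMIs of rat 2 in 47 cells, at 7072 CPM. The macrophage markers together stood at 2151 CPM in those cells. They stood at 0 in the filtered defensin-rich cells of both rats, and at 8.92 and 2.24 in goblet-lineage cells without defensin-rich cells. In rat 1 only 2 such cells were retained.

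Among barcodes with at least 10 Lyz2 UMIs, 17 of 120 in rat 1 were defensin-rich, 99 were goblet-rich only, 1 had at least 3 macrophage marker UMIs and 3 had none of these. In rat 2, 5 of 67 were defensin-rich, 22 were goblet-rich only, 18 had macrophage marker UMIs and 22 had none of these. The threshold on macrophage UMIs was chosen after the data were seen.

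Within the goblet lineage, Itln1 and Lyz2 were not spread evenly. The class was made of 2 clusters, numbered 8 and 10, and cluster 8 was led by Tff3, Agr2 and Clca1 and cluster 10 by Zg16, Tff3 and Fcgbp. Stem and cycling markers were also higher in cluster 8, with mean log-normalised levels of 0.307 (stem) and 0.355 (cycling) against 0.0241 and 0.0192 in cluster 10, over both rats. Without defensin-rich cells, Itln1 stood at 4911 CPM in cluster 8 and 146 in cluster 10 in rat 1, and at 4627 and 53.9 in rat 2. Lyz2 stood at 539 and 88.8 in rat 1 and at 1252 and 71.7 in rat 2. Both genes were higher in cluster 8 in both rats. With all cells, the summed defensins stood at 72.5 and 18673 CPM in clusters 8 and 10 of rat 1, where cluster 10 held 2 defensin-rich cells, and at 2290 and 4.58 in rat 2, where cluster 8 held 1.

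Shares of cells gave the same order after thinning to 5000 UMIs. An Itln1 UMI was found in 94.3% of 331 cells of cluster 8 and 32.6% of 86 cells of cluster 10 in rat 1, and in 81.5% of 54 and 22.8% of 123 in rat 2. A Lyz2 UMI was found in 39.3% and 16.3% in rat 1 and in 38.9% and 13.8% in rat 2. In enterocyte-like cells Itln1 was found in 5.68% and 0.555% of cells and Lyz2 in 2.73% and 0.648% in rats 1 and 2. Without thinning, Itln1 was found in 97.9% and 40.7% of the cells of clusters 8 and 10 in rat 1, and in 87.0% and 38.2% in rat 2.

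Genes whose level followed these members across goblet-lineage cells were named from Pearson correlations of log2(CPM + 1) in each rat, over 419 cells of rat 1 and 178 of rat 2 and 4661 genes. All points of a rat share 1 library, and low counts and depth enter each value. Among the genes most like Itln1 were Rpl36a (r of 0.719 and 0.662 in rats 1 and 2), Rpl10a, Nme2 and Slc12a2. Among those most like Lyz2 were Itln1 (0.263 and 0.409), Rpl32, Impdh2 and LOC100362400. For the summed defensins the first was RatNP-3b (0.204 and 0.633), where a single cell held 2704 of the 2718 defensin UMIs of these cells in rat 2, and the next, Pla2g2a, Wnt3, B3galt2 and Cd24, were weak, with values from 0.103 to 0.129 in rat 1.

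Itln1 and Lyz2 were also found in some cells outside the goblet lineage. Itln1 stood at 896 CPM in 24 enteroendocrine-like cells of rat 1 and at 1013 in 11 of rat 2, and after thinning it was found in 70.8% and 100% of them, against 5.68% and 0.555% of enterocyte-like cells. Lyz2 stood at 188 and 70.6 CPM in them and was found in 54.2% and 36.4% after thinning, against 2.73% and 0.648% of enterocyte-like cells. Of these cells, 5 of 24 and 4 of 11 were goblet-rich. Lyz2 stood at 145 CPM in 134 tuft-like cells of rat 2 and was found in 36.6% of them after thinning, whereas the 12 tuft-like cells of rat 1 had 1 Lyz2 UMI in all.

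Mmp7 was found in CHE-like cells of both rats. CHE cells are epithelial cells with high Cftr that are known from the rat jejunum. In rat 2, 78 CHE-like cells held 18 of the 32 Mmp7 UMIs of the library, or 16.8 CPM, and 8 of them had at least 1. In rat 1, 9 CHE-like cells held 13 Mmp7 UMIs, or 132 CPM, in 4 cells, while 3291 enterocyte-like cells held 3. In both rats a single cell gave 6 of these UMIs. The defensins in CHE-like cells, at 152 CPM in rat 1 from 15 UMIs and 5.60 in rat 2 from 6, stood beside 74.3 and 3.15 in enterocyte-like cells.

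**Figure D4:**
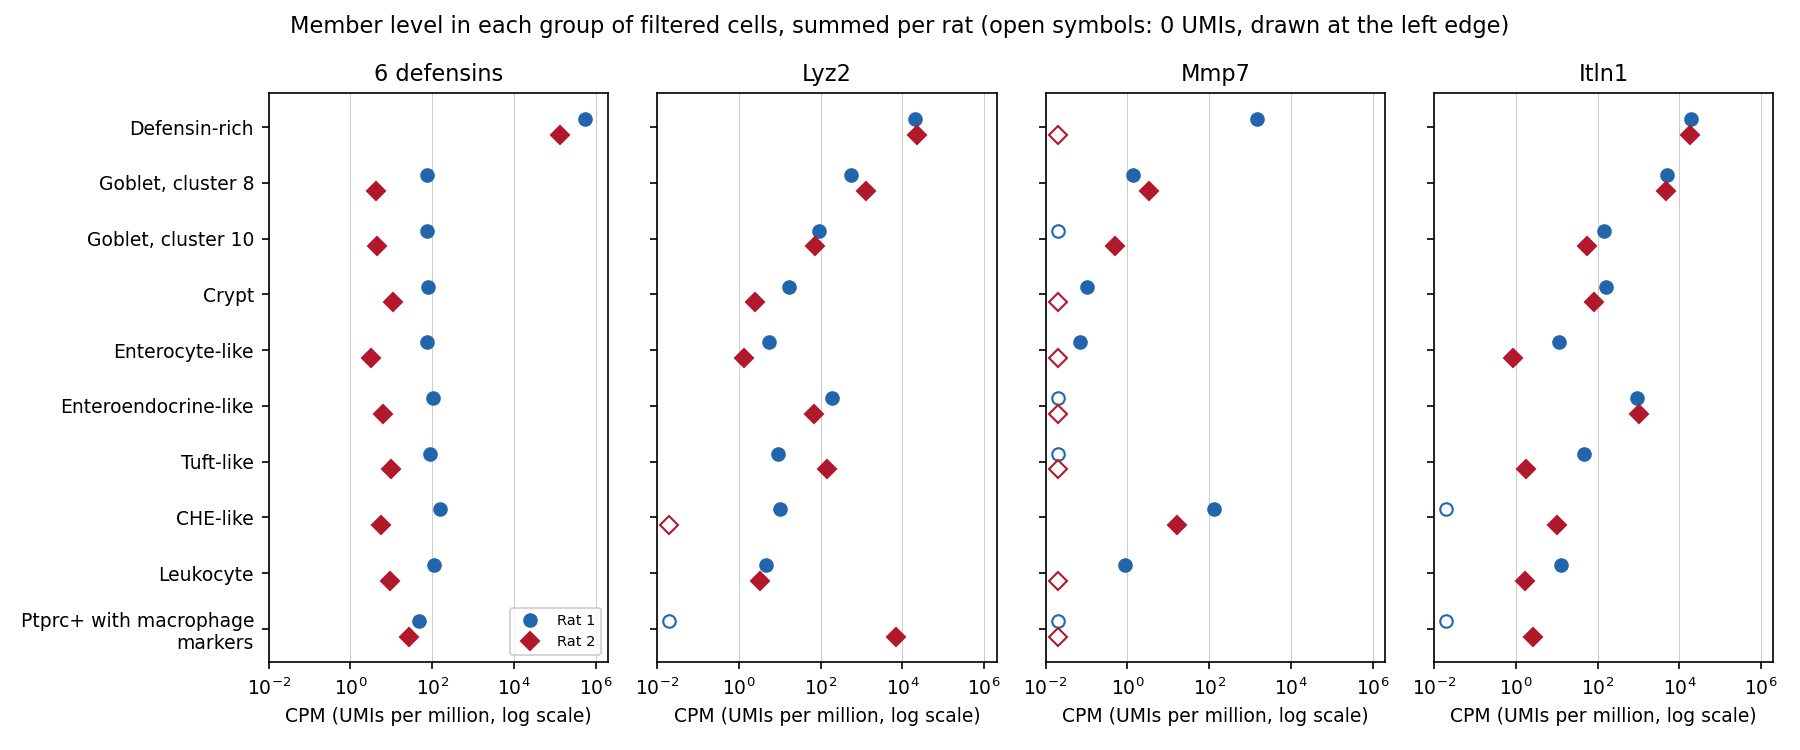
Level of the 6 defensins together, Lyz2, Mmp7 and Itln1 in CPM (x axes, log) in each group of filtered cells, with 1 symbol per rat and open symbols for 0 UMIs. The defensins are high only in the defensin-rich cells, which the threshold fixes, and Itln1 is about as high in goblet cluster 8 of rat 1 (4911) as of rat 2 (4627).

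UMI counts were summed per rat and class and compared with edgeR. The first comparison asks which members were higher in goblet-lineage cells than in the mean of the other 5 epithelial classes (enterocyte-like, crypt, enteroendocrine-like, tuft-like and CHE-like). Itln1, Lyz2 and Defa6 were higher. Itln1 had a log2 fold change of 6.12 (SE 0.797, adjusted p = 0.00129), Lyz2 one of 4.83 (SE 0.976, adjusted p = 0.0212) and Defa6 one of 5.82 (SE 1.22, adjusted p = 0.0242), with n = 2 rats in edgeR's quasi-likelihood test. These are 3 of the 8 members tested, where 2.64% of all 9698 genes were higher, and Defa5 was not tested since it had no UMI. With DESeq2 the call on Defa6 was lost (adjusted p = 0.136).

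The difference lay in the same direction in both rats taken singly for each of the 8 members, by differences of log2 CPM that carry no test. For Itln1 it was 7.05 in rat 1 and 6.64 in rat 2, for Lyz2 4.26 and 6.51, and for Defa6 4.60 and 8.41. The members that did not pass had log2 fold changes of 4.37 (Defa24, adjusted p = 0.134), 4.28 (Defa8, 0.123), 3.91 (Defa9, 0.194), 3.68 (Defal1, 0.279) and 3.95 (Mmp7, 0.537) in the edgeR test. With the rat as a block, 7 of the 8 members were higher, where 5.84% of all genes were, and Mmp7 remained outside the threshold (adjusted p = 0.164).

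The defensin fold changes of both comparisons were smaller without the defensin-rich cells. This fall was largely fixed in advance, since these cells were picked by their defensin share. They held 97.9% of the defensin UMIs of crypt cells in rat 1. Of those of goblet-lineage cells they held 97.4% in rat 1 and 99.5% in rat 2. When the 7 such cells of rat 1 and the 1 of rat 2 in these classes were left out, an alternative chosen after the data were seen, the log2 fold changes of the 5 defensins tested lay between -0.19 and 0.47 and none passed edgeR's threshold. Defa6 then stood at 0.15 (adjusted p = 1.00). Itln1 stayed at 6.33 (SE 0.722, adjusted p = 0.000521) and Lyz2 at 5.23 (SE 0.740, adjusted p = 0.00221), so that 2 of 8 members were higher, where 2.62% of all genes were. Mmp7 had 3.16 (adjusted p = 0.531).

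The second comparison asks whether members differed between crypt cells, a class apart from the goblet-lineage class, and enterocyte-like cells. Of the crypt cells, 15 of 1260 in rat 1 and 2 of 140 in rat 2 were goblet-rich. Of the enterocyte-like cells, 5 of 3292 and 3 of 1081 were. The part of such cells in the results was not tested. Defa6 was higher in crypt cells, with a log2 fold change of 5.48 (SE 1.89, adjusted p = 0.0430), and so was Itln1, with 3.85 (SE 1.33, adjusted p = 0.0435), by edgeR with n = 2 rats. This is 2 of 8 members, where 24.1% of all genes tested were higher. The call on Defa6 was lost with DESeq2 (adjusted p = 0.0658) and at a mitochondrial limit of 20% (adjusted p = 0.0577 in edgeR). That on Itln1 was lost at the same limit (adjusted p = 0.0691 in edgeR) and with the members among the variable genes (adjusted p = 0.0714 in edgeR). The other 6 members had log2 fold changes between 3.70 and 4.12. With the rat as a block all 8 were higher, where 31.9% of all genes were.

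Without the defensin-rich cells only Itln1 was higher in crypt cells, at 3.94 (SE 1.21, adjusted p = 0.0276 in edgeR), where 24% of all genes were. The defensins then lay between -0.14 and 0.17, Lyz2 at 1.24 (adjusted p = 0.398) and Mmp7 at 0.62 (adjusted p = 0.771). In rat 2, whose crypt class held no defensin-rich cell, the single-rat differences were 1.84 for Defal1, 1.52 for Defa24, 1.45 for Defa6, 1.13 for Defa8 and 0.08 for Defa9, each from 1 to 6 UMIs in crypt cells. They were 0.71 for Lyz2 and 6.06 for Itln1. Itln1 stood at 160 CPM in crypt cells of rat 1 without defensin-rich cells and at 80.2 in those of rat 2, where a single cell gave 49.6% of its UMIs.

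**Figure D5:**
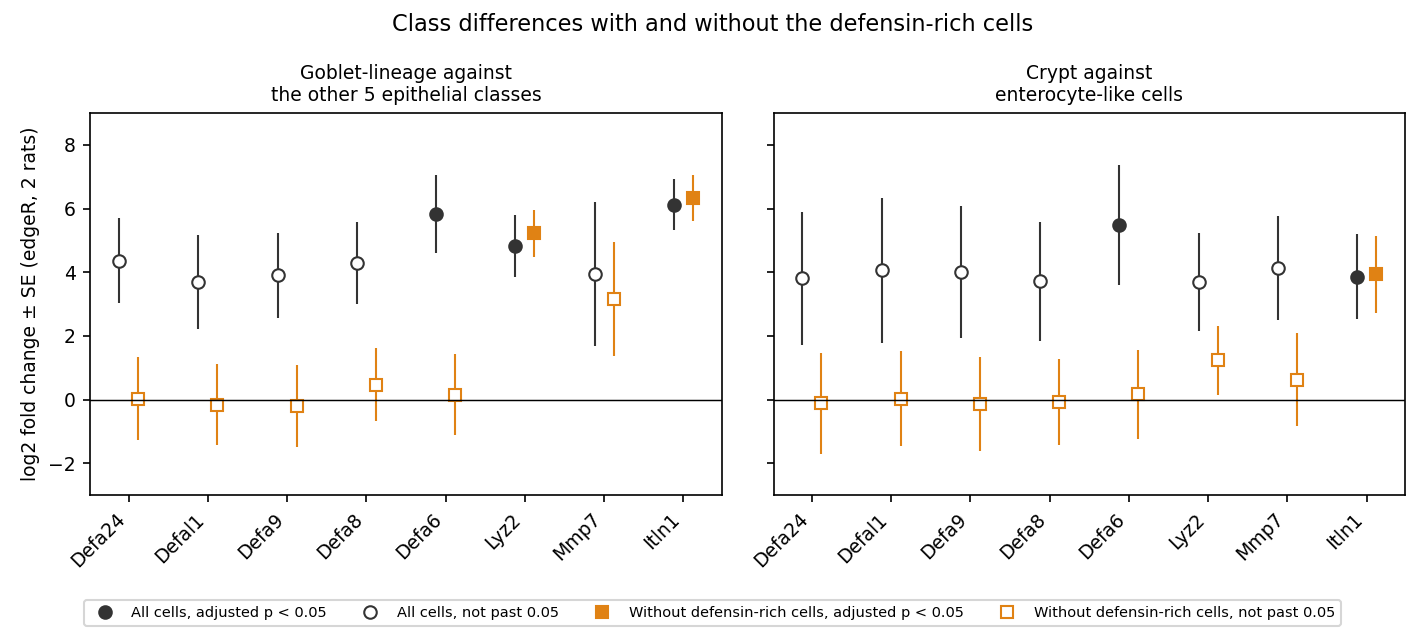
Log2 fold change with its SE (y axis, edgeR, 2 rats) of the 8 members tested, for goblet-lineage cells against the other 5 epithelial classes and for crypt against enterocyte-like cells, with all cells (circles) and without defensin-rich cells (squares). Filled symbols passed the adjusted threshold of 0.05. Without defensin-rich cells the defensins lie between -0.19 and 0.47, which picking those cells by defensin share largely fixes. Itln1 stays at 6.33 and 3.94.

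A list of 27 other genes known from Paneth cells or from antimicrobial defence was read in the same tests. Of the 13 that could be tested, 2 passed the test, both higher in goblet-lineage cells. These were Wnt3 at 6.31 (SE 1.14, adjusted p = 0.0173 in edgeR) and Copz2, a vesicle coat protein, at 5.28 (SE 1.05, adjusted p = 0.0275). Of all genes tested, 2.64% were higher in this comparison. The median log2 fold change of the list was 1.62, beside 0.21 for all genes. In crypt against enterocyte-like cells 3 of the 13 were higher, near the 24.1% of all genes that were higher, and 1 was lower. Sox9, a transcription factor of the crypt, was higher by 5.25 (adjusted p = 0.00164), Wnt3 by 6.33 (adjusted p = 0.00871) and Pla2g2a by 5.01 (adjusted p = 0.0319), and Reg3b, an antibacterial lectin, was lower, with -3.29 (adjusted p = 0.0315), all by edgeR, where 9.15% of all genes were lower. The median of the list was -0.26, beside 0.55 for all genes. The 6 calls on these genes held in edgeR when defensin-rich cells were left out, with Wnt3 at 6.38 (adjusted p = 0.0187) in the first comparison. With DESeq2, 2 genes of the list were higher in crypt cells, where 2334 of all genes were, and 2 were lower, where 1233 were. At a mitochondrial limit of 20% the counts were also 2 and 2, where 1504 and 1145 genes were. Under the other alternatives 3 to 5 were higher, where 2314 to 3090 genes were, and 1 or 2 lower, where 890 to 1575 were. In goblet-lineage cells 2 to 7 were higher under the alternatives, where 176 to 670 genes were. In rat 2, 163 of the 171 Pla2g2a UMIs of crypt cells came from a single cell.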

How the data were processed

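Single-cell RNA sequencing of the proximal jejunum epithelium of 2 rats (10x 3' chemistry) was read from the deposited files. The authors deposited 1 table of raw UMI counts for each rat, aligned to the rn6 genome by Cell Ranger and limited to called cells. Its version is 3.1.0 in the header of rat 1 and 5.0.1 in that of rat 2, which cannot be told apart from the rat. The deposited features and barcodes hold names only.

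Cells were filtered as the study states, then integrated and clustered with Seurat 5.3.0 (2000 variable genes, 20 principal components, resolution 0.3 for all cells and 0.5 for epithelium), with the members and other Paneth genes held out of the variable genes. Clusters were named from fixed markers, with levels set after the clusters were seen, so the classes are rebuilt and may differ from the study's. Clusters with no name (772 cells of rat 1 and 66 of rat 2) entered no comparison. Doublets were called with Scrublet in scanpy 1.11.5 and kept.

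Counts were summed per rat and class (12 sums of 6 classes) and fitted in 1 model with edgeR 4.0.16 (TMM, default filter, quasi-likelihood test, Benjamini-Hochberg adjustment, threshold 0.05). The SE is the log2 fold change over the root of F. The script was tested on simulated data. Sums with the same number come from the same animal, so the rat pairs them: over 15 pairs of classes the differences between rats correlated with a median r of 0.263 (0.000906 to 0.600). The study names no blocked test, so the block is an alternative. The p-values rest on 2 animals. Alternatives were DESeq2 1.42.0, no filter, the block, a mitochondrial limit of 20%, doublets removed, resolution 1.0, single rats and other thresholds of share.

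Rows were named by symbol: the 9 members, and, as counts with values for those past the test, 27 other Paneth or antimicrobial genes. Some genes whose levels followed a member are not reported here. The members and lists were chosen with earlier results of these data known. Shares of barcodes carry exact 95% Clopper-Pearson intervals, and a count of 0 allows up to 3 UMIs; both cover counting error only.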

Additional observations from a re-analysis of the deposited data

How the results depend on the processing

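Classes and calls rested on 2 rats, and the defensin values on 10 filtered cells. In goblet-lineage cells against the other classes, 258 genes passed the test, against 738 with no filter on low counts and 583 with the replicate block, which pairs the sums of a rat. The members called were 3, where 256 of 9698 genes were higher, and 7 with no filter, where 670 of 17464 were. They were 7 with the replicate block, where 566 of 9698 genes were higher. Under the other alternatives they were 2 to 3, where 176 to 380 genes were higher. In crypt against enterocyte-like cells, 2 members were called, where 2336 of 9698 genes were higher. No filter gave 8, where 2339 of 17464 genes were higher, and the replicate block gave 8, where 3090 of 9698 were. DESeq2, the members among the variable genes and leaving out defensin-rich cells each gave 1, where 2314 to 2334 genes were higher. A mitochondrial limit of 20% gave 0, where 1504 of 9291 genes were higher and 3909 had an unadjusted p under 0.05 in edgeR. The last 2 of the alternatives that gave 1 were chosen after the data were seen. Leaving out defensin-rich cells, which takes away most defensin UMIs by design, put some log2 fold changes slightly below 0. These were Defa9 (-0.19) and Defal1 (-0.15) in the first comparison, and Defa24 (-0.12), Defa8 (-0.077) and Defa9 (-0.14) in the second. None of them passed the threshold. Defensin-rich barcodes of rat 1 numbered 34, against 93 at a threshold of 0.3% and 9 among filtered cells, with or without Scrublet calls. Rat 2 had 9 and, among filtered cells with or without Scrublet calls, 1. The goblet-rich share of rat 1 was 5.88%, and 0% among filtered cells, with or without Scrublet calls, and at a goblet threshold of 3%. In rat 2 it was 22.2%, and 100% among filtered cells, with or without Scrublet calls, from 1 cell. Of the other counts of genes, members and barcodes, 30 stayed within 1.5 times the main value or within its interval. The causes of these shifts were not tested.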
